A study of Rattus norvegicus with 12 samples.

Results

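Splicing factor and hnRNP genes were followed through 4 stages of chemically induced liver disease in the rat. The set took every probe set whose single gene symbol began with Srsf, Hnrnp or Snrp, or with Sf3a or Sf3b and a number. A gene with several probe sets was represented by the one with the highest mean over all arrays. The rule gave 75 probe sets of 47 genes, out of 14217 genes tested: 11 SR protein symbols, 17 hnRNP symbols, 1 U1 and 2 U2 snRNP protein symbols, 7 Sm ring symbols, 3 SF3A subunits and 6 SF3B subunits. A further 8 matching probe sets carried several symbols and were not members.

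RNA was measured on 12 single-colour arrays, 3 for each group, from male adult Sprague-Dawley rats. Diseased rats had been injected intraperitoneally with diethylnitrosamine (DEN), a carcinogen activated in hepatocytes, at 70 mg/kg weekly over 10 weeks. The hepatitis group was taken at week 5, the cirrhosis group at weeks 13 to 14 and the hepatocellular carcinoma (HCC) group at weeks 23 to 24, without a statement of whether weeks ran from the first or the last injection. Controls had received distilled water, and no week of sacrifice was stated for them. The series describes liver tissue for the first 3 groups and HCC tissue for the last, whereas the tissue label reads liver throughout. Nothing in the labels says that arrays came from separate rats, so every p-value measures only the spread between these arrays. Every group shares strain and sex, and the 3 diseased groups share the carcinogen. A stage cannot be told apart from the time since treatment or from the age of the rats. If weeks ran from the first injection, week 5 fell within the 10 weeks of dosing. The hepatitis stage could then not be told apart from a smaller total dose or from ongoing injections either.

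Introns are removed from pre-mRNA by the spliceosome, whose core is a set of small nuclear ribonucleoproteins (snRNPs) built on a ring of Sm proteins. The U1 snRNP pairs with the 5′ splice site, and the U2 snRNP, with its SF3A and SF3B subcomplexes, recognises the branch site. SR proteins bind exonic enhancers and favour use of nearby splice sites, whereas hnRNP proteins coat nascent RNA and often oppose it. Dividing cells and many tumours are known for raised amounts of several of these proteins, and Srsf1 and Hnrnpa1 are frequently studied examples.

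The deposited values are linear intensities, and differences are given on the log2(intensity + 16) scale, which understates changes of dim genes. Median intensity was 28.7 to 30.9 on the 12 arrays. The HCC arrays were the most spread, with a median standard deviation per gene of 0.21 on the log2 scale against 0.072 to 0.10 in the other groups. The log2 ratio of 3′ to 5′ control probe sets, a sign of shortened RNA, was 1.36, 2.46 and 3.2 for Gapdh on HCC replicates 1, 2 and 3, against 0.38 to 1.03 on the other arrays. Beta actin gave 3.9 to 5.14 on the HCC arrays and 2.18 to 2.78 on the rest. Hepatocyte markers were present in every group: mean Alb intensity was 14810 in controls and 14070 in HCC. Alb lay at the top of the scale, where the highest value on an array was 13675 to 15006, so it may not show a difference. The 15 hepatocyte markers summed to 104000 to 105300 in controls and 52440 to 91630 in HCC. There 8 of them were called lower, beside 18.7% of all genes. The part of RNA quality or tissue makeup in the results that follow was not tested.

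HCC tissue carried more RNA of many splicing genes than control liver. Of the 47 members 25 were called higher and 2 lower (limma, adjusted p under 0.05 by Benjamini-Hochberg over every gene tested), which is 53.2% and 4.3%. Among all 14217 genes 38.7% were called, 20% higher and 18.7% lower. Without the dimmest 30% of genes the shares over all remaining genes were 25.6% higher and 25.4% lower. All 12 arrays share 1 estimate of spread per gene, which averages the wider spread of the HCC arrays with the rest. Standard errors of HCC differences may therefore be too small. In a fit of HCC and control alone 20 members were called higher and 1 lower. There 22.5% of all genes were called, 10.9% higher and 11.6% lower. An F test for any difference among the 4 groups called 32 members, against 40.3% of all genes. The median log2 difference of HCC from control was 0.50 over the members and 0.01 over all genes, and 39 of the 47 differences were positive. On 26 members all 3 HCC arrays lay above the other 9 arrays, as they did for 14% of all genes, and on 1 member, Sf3b5, they lay below, as for 13.3% of all genes. In bulk tissue a change in the number of cells of a type and a change in the RNA per cell cannot be told apart.

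**Figure D1:**
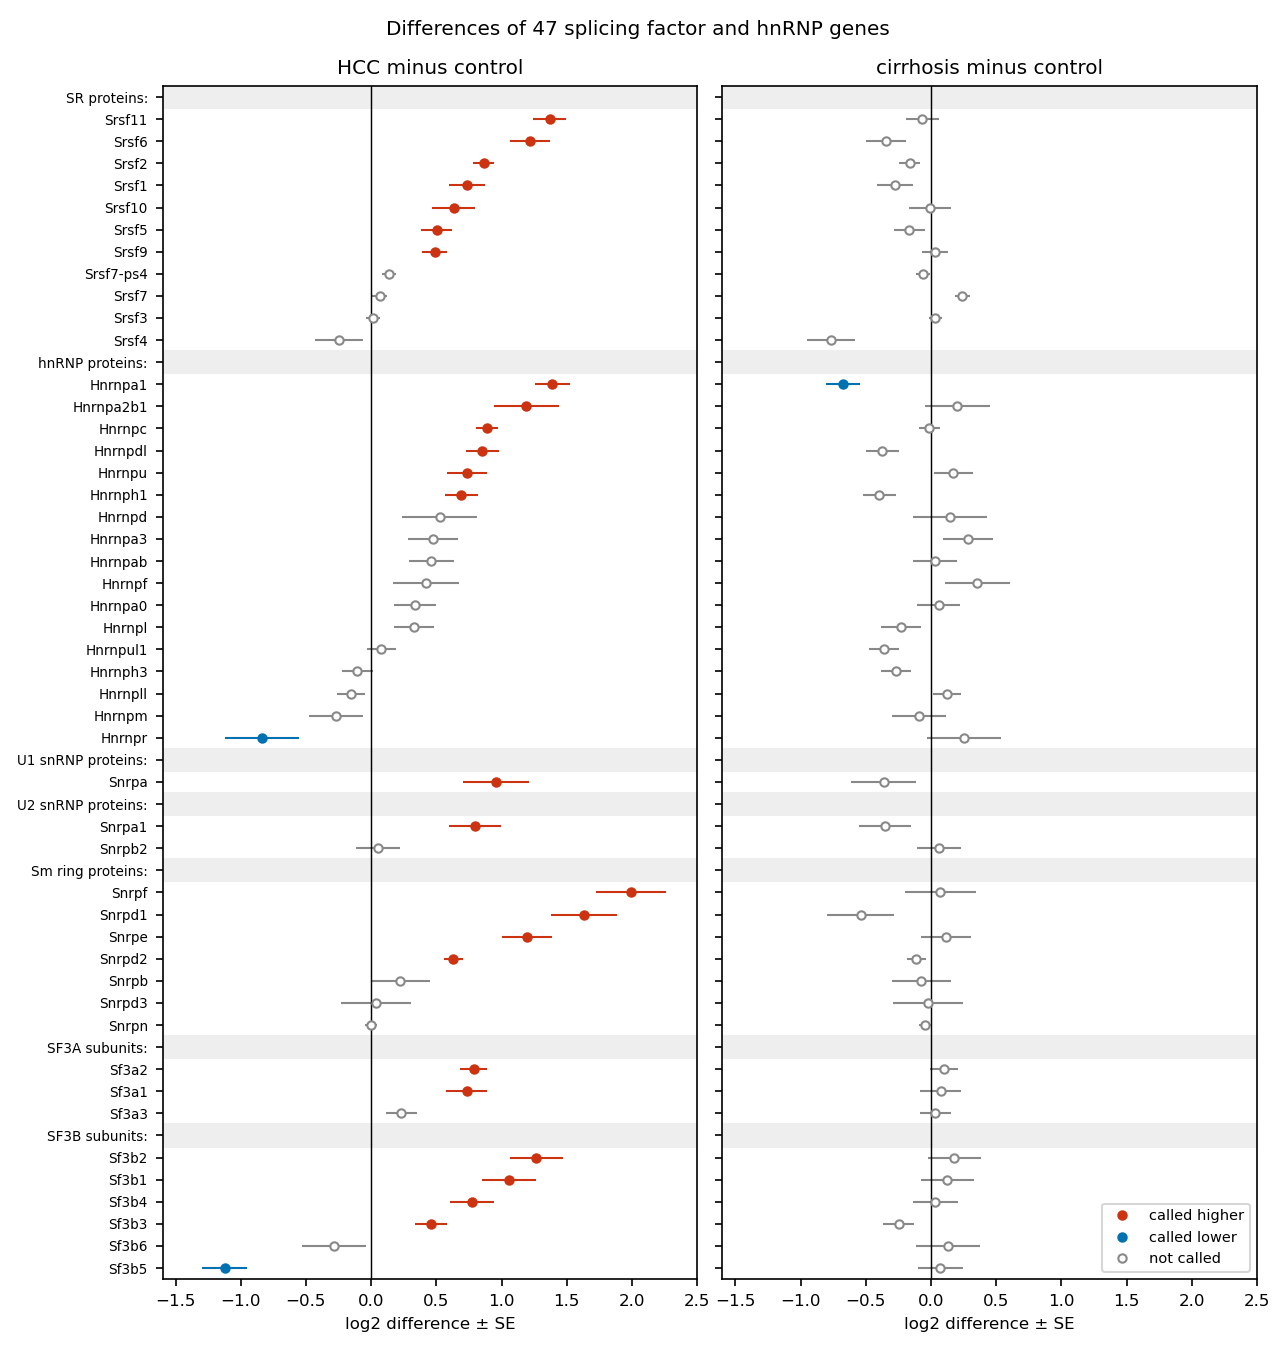
Log2 difference (x axis, log2 intensity units) of each of the 47 genes in HCC against control (left) and in cirrhosis against control (right), with the standard error of the fit as bars; filled points passed the threshold. On the left 25 points are filled to the right of 0 and 2 to the left, while on the right only Hnrnpa1 is filled, at -0.67.

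The promoters of 5 genes are printed to show the sequence ahead of the genes that lead the families: the called gene with the largest rise in each of the SR, hnRNP, Sm ring and SF3A groups, and Sf3b5, the member that fell most. Sf3b2, the leading SF3B rise, had no entry in the table used. Each is the 200 bases before the annotated start in RefSeq GRCr8, written 5′ to 3′ on the gene's strand, with matches to the searched motifs in capitals.
Srsf11: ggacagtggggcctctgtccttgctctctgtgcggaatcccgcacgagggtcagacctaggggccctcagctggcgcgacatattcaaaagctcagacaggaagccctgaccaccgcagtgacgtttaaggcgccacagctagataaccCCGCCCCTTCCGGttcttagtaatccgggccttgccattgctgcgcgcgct
Hnrnpa1: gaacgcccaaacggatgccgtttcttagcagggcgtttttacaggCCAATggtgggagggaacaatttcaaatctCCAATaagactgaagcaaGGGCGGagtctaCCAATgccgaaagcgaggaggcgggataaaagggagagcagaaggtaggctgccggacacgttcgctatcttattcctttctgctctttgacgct
Snrpf: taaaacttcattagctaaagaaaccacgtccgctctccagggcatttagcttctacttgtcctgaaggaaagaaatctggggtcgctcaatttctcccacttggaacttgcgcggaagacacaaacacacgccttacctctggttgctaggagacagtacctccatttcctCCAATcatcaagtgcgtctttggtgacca
Sf3a2: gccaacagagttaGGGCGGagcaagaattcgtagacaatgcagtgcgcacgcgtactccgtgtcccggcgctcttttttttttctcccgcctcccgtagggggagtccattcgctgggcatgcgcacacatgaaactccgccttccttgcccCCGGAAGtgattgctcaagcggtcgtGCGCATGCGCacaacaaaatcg
Sf3b5: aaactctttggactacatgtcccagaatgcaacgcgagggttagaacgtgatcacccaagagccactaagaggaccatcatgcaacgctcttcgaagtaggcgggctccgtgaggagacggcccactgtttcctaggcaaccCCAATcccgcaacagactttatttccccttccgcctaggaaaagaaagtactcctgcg
The stretches are chr2:249760259-249760458 on the minus strand for Srsf11, chr7:136253918-136254117 on the plus strand for Hnrnpa1, chr7:30024163-30024362 on the minus strand for Snrpf, chr7:9566206-9566405 on the minus strand for Sf3a2 and chr1:9176989-9177188 on the plus strand for Sf3b5. In Hnrnpa1 CCAAT boxes began 155, 125 and 95 bases before the start, with a GC box at 107. Srsf11 held a GC box at 51 and an ETS core at 45, directly next to each other on the other strand. Snrpf and Sf3b5 each held 1 CCAAT box, at 29 and 58 bases before the start. Sf3a2 held a GC box at 187, an ETS core at 48 and an NRF1 match at 22.

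Of the 47 members 44 had an entry in the promoter table, and the motifs were counted on both strands of the 300 bases from 250 before to 50 after the start. The CCAAT box (CCAAT) was found in 24 of 44 member promoters, 54.5%, against 37.5% of all 33469 promoters of that length. Members were counted with 1 entry per gene. The 33469 are all entries, not reduced to 1 per gene or to measured genes, so the shares have unlike bases. The GC box (GGGCGG) was found in 28, 63.6%, against 33.1%, and the ETS core (CCGGAAG) in 14, 31.8%, against 8.7%. The NRF1 motif (GCGCA followed directly by TGCGC) stood in 4.5% against 0.9%, the E-box (CACGTG) in 11.4% against 6.4%, YY1 (AANATG followed directly by GCGG) in 2.3% against 1.6% and the TATA box (TATAAA) in 11.4% against 14.2%. The families differed in their letters: 14 of 16 hnRNP promoters held a CCAAT box and 2 of 16 an ETS core, whereas 6 of 18 snRNP and SF3 promoters held a CCAAT box and 8 of 18 an ETS core. Of the 10 SR promoters 8 held a GC box, 4 a CCAAT box and 4 an ETS core. These are matches of letters, described without a test.

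Among the SR proteins 7 of 11 were called higher in HCC and none lower, 63.6% higher beside 20% of all genes. Srsf11, an SR-related protein of nuclear speckles, had intensities of 460.1, 398 and 443 in controls, 653, 500.3 and 616 in hepatitis, 417, 450.2 and 375 in cirrhosis and 1113, 1007 and 1336 in HCC. All HCC arrays lay above the other 9, and the hepatitis arrays lay between. The difference from control was 1.37 ± 0.13 (SE; limma adjusted p = 7.68e-05). Srsf6, which binds exonic enhancers, read 334, 343 and 331 in controls, 254, 289 and 241 in cirrhosis and 895, 962 and 597 in HCC, a difference from control of 1.22 ± 0.15 (adjusted p = 0.000327). The groups did not overlap, although the lowest HCC array was replicate 3 here and replicate 2 for most members. Srsf2, known as SC35 and a marker of nuclear speckles, was between 1679 and 1733 in controls and between 2786 and 3281 in HCC, a rise of 0.86 ± 0.08 (adjusted p = 7.68e-05).

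The other called SR genes moved less. Srsf1, the best known SR protein and able to transform cells when overproduced, rose by 0.73 ± 0.14, from a mean of 353 ± 18.4 to 606 ± 125 (SD, n = 3). Srsf10, a splicing repressor in its unphosphorylated form, rose by 0.63 ± 0.16 at low intensity, from 40.4 ± 5.36 to 73.2 ± 24.5. Srsf5 rose by 0.50 ± 0.12 and Srsf9 by 0.49 ± 0.10. In a fit of HCC and control alone the Srsf10 difference no longer passed (adjusted p = 0.0759), and with array weights the Srsf5 difference did not (adjusted p = 0.0662). Srsf4 did not pass: it read 775, 749 and 856 in controls and 592, 608 and 816 in HCC, a difference of -0.25 ± 0.18 (adjusted p = 0.324). Srsf7, its pseudogene symbol Srsf7-ps4 and Srsf3 were dim, and their differences of 0.07, 0.14 and 0.02 did not pass. Srsf3 lay under 16 on all 12 arrays, so the added 16 leaves little room for a difference of this probe set.

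Among the hnRNP genes 6 of 17 were called higher and 1 lower, 35.3% and 5.9%, beside 20% and 18.7% of all genes. Without the dimmest 30% of genes 25.6% of the remaining genes were higher, nearer to the hnRNP share. Hnrnpa1, which binds splicing silencers and antagonises SR proteins, gave intensities of 529, 465 and 449.7 in controls and 423, 332 and 448 in hepatitis. It then gave 302, 301 and 282 in cirrhosis and 1497, 1084 and 1303 in HCC. Cirrhosis was the lowest group and HCC the highest, with no overlap between these groups and the controls. The difference between HCC and control was 1.39 ± 0.13 (limma adjusted p = 8.26e-05). Hnrnpa2b1, a close relative that also sorts RNA for transport, read 526, 630.3 and 720.2 in controls and 1800, 992 and 1658 in HCC, a rise of 1.19 ± 0.25 (adjusted p = 0.00438). HCC replicate 2 was far nearer the controls than the other HCC arrays. Hnrnpc, which packages nascent RNA through uridine tracts, was 685 to 751 in controls and 1216 to 1522 in HCC, a rise of 0.89 ± 0.08 (adjusted p = 7.78e-05).

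Another 3 hnRNP genes rose in HCC. Hnrnpdl, related to the AU-rich element binding protein of Hnrnpd, rose by 0.85 ± 0.13. Hnrnpu, a nuclear scaffold protein that binds RNA and chromatin, rose by 0.73 ± 0.15 and Hnrnph1, which binds runs of guanine, by 0.69 ± 0.12. Hnrnpr, a relative of Syncrip, was the hnRNP gene called lower: it read 350, 388 and 362 in controls and 363, 141 and 148 in HCC, a difference of -0.84 ± 0.28 (adjusted p = 0.0407). HCC replicate 1 lay among the controls, so the groups overlapped. Without HCC replicate 2 the difference was -0.62 (adjusted p = 0.114), without HCC replicate 3 it was -0.65 (adjusted p = 0.132), and without HCC replicate 1 it was -1.25 (adjusted p = 0.000146). Leaving out any 1 control array, any 1 cirrhosis array or hepatitis replicate 1 or 2 also ended the call, with adjusted p between 0.053 and 0.105. So did 64 added before the log2 (adjusted p = 0.0505) and a fit of HCC and control alone (adjusted p = 0.145).

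The remaining 10 hnRNP genes did not pass. Hnrnpa3, the hnRNP symbol with the highest mean, was 1078, 1071 and 1134 in controls and 1900, 1043 and 1801 in HCC, a difference of 0.48 ± 0.19 (adjusted p = 0.076). HCC replicate 2 fell below all 3 controls. Hnrnpab gave 0.46 ± 0.17 (adjusted p = 0.057) with groups that did not overlap. Hnrnpd, Hnrnpf, Hnrnpa0 and Hnrnpl gave 0.53, 0.42, 0.34 and 0.33, each with overlapping groups, while Hnrnpul1, Hnrnph3, Hnrnpll and Hnrnpm gave 0.08, -0.10, -0.15 and -0.27.

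**Figure D2:**
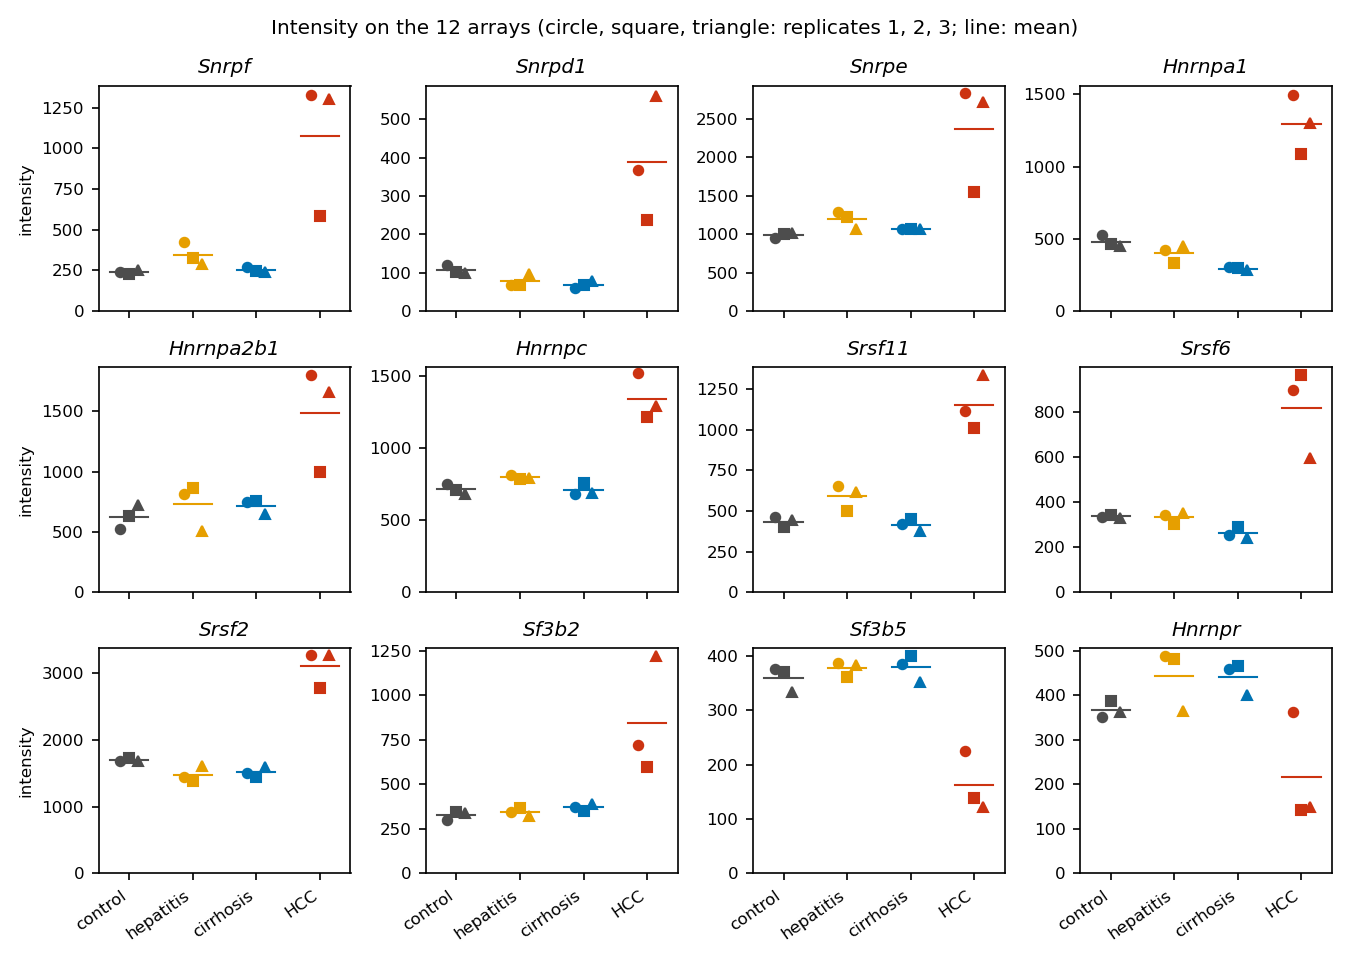
Intensity (y axis, linear, from 0) of 12 genes on every array by group (x axis); the marker shape gives the replicate number and the line the group mean. Snrpf, Snrpd1, Snrpe, Hnrnpa1, Hnrnpa2b1, Hnrnpc, Srsf11, Srsf6, Srsf2 and Sf3b2 have all 3 HCC arrays above the other 9, Sf3b5 has them below, and Hnrnpr has HCC replicate 1 among the controls.

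The Sm ring proteins, which are loaded on U1, U2, U4 and U5 snRNA, held the largest rises among the probe sets used. Snrpf read 241, 231 and 252 in controls, 425, 323 and 291 in hepatitis, 274, 247 and 242 in cirrhosis and 1328, 587 and 1306 in HCC. Every HCC array lay above every other array, and replicate 2 was the lowest of the 3. The rise over control was 1.99 ± 0.27 (limma adjusted p = 0.000464). Snrpd1 read 120, 103 and 99.8 in controls, 68.4, 67.1 and 97.8 in hepatitis, 60.45, 68.7 and 78.2 in cirrhosis and 369, 236 and 561 in HCC. Its hepatitis and cirrhosis arrays all lay below the controls, and its HCC arrays above them. The rise over control was 1.63 ± 0.25 (adjusted p = 0.00093). Snrpe was 950.3 to 1014 in controls and 1548 to 2833 in HCC, a rise of 1.20 ± 0.19, and Snrpd2 was 579 to 620.2 in controls and 854 to 1030 in HCC, a rise of 0.63 ± 0.08 (adjusted p = 0.000247).

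The other Sm symbols did not move with them. Snrpd3 read 586, 568 and 529 in controls and 1012, 399 and 469 in HCC, so 1 HCC array was above the controls and the others below, and the difference was 0.04 with a 95% interval of -0.56 to 0.63. Snrpb gave 0.22 ± 0.23, at 1107, 504 and 616 in HCC against 567 to 635 in controls. HCC replicate 1 lay above the controls, replicate 2 below and replicate 3 among them. Snrpn, a copy of Snrpb used mainly in brain, lay at 13.8 to 17.2 on all arrays. A ring holds 1 copy of each kind of protein. Differences of its symbols on these arrays ran from 0.00 for Snrpn to 1.99 for Snrpf; whether they differ from each other was not tested.

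Snrpa, the U1 protein that binds a stem loop of U1 snRNA, was 105, 103 and 107 in controls and 368, 139 and 201 in HCC, a rise of 0.96 ± 0.25 (adjusted p = 0.0134). Snrpa1, the U2 A′ protein, was 133, 122 and 151 in controls and 334, 165 and 267 in HCC, a rise of 0.79 ± 0.20 (adjusted p = 0.0104). In both genes every HCC array lay above all other arrays, and HCC replicate 2 was the lowest of them. In a fit of HCC and control alone neither passed, with adjusted p = 0.0884 for Snrpa and 0.0736 for Snrpa1. Snrpb2, the partner of Snrpa1 in U2, gave 0.05 ± 0.17.

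The SF3A and SF3B subunits of U2 were split. Sf3a2 read 254, 246 and 263 in controls and 415, 400.5 and 549 in HCC, a rise of 0.79 ± 0.11 (limma adjusted p = 0.000444). Sf3a1 rose by 0.73 ± 0.16, and Sf3a3 gave 0.23 ± 0.12 (adjusted p = 0.149). Sf3b2, which contacts the pre-mRNA near the branch site, read 299.8, 344 and 339 in controls and 723, 599 and 1219 in HCC, a rise of 1.27 ± 0.20 (adjusted p = 0.00114). Sf3b1, the scaffold subunit that is mutated in several human cancers, was 450.4, 512 and 516 in controls and 1505, 714 and 1045 in HCC, a rise of 1.06 ± 0.21 (adjusted p = 0.00304). Both genes had all HCC arrays above the other 9. Sf3b4 rose by 0.77 ± 0.17 and Sf3b3 by 0.46 ± 0.12, and neither passed in a fit of HCC and control alone (adjusted p = 0.0528 and 0.0952).

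Sf3b5, the smallest SF3B subunit, went the other way. It read 375, 370.2 and 334 in controls, 387, 360.5 and 384 in hepatitis, 384, 399.7 and 352 in cirrhosis and 226, 138 and 122 in HCC. All HCC arrays lay below the other 9, at 0.45 of the control mean. The difference was -1.12 ± 0.17 (adjusted p = 0.000858). Sf3b6, the subunit placed at the branch adenosine, read 670, 340.2 and 278 in HCC against 463 to 525 in controls, a difference of -0.29 ± 0.24 that did not pass (adjusted p = 0.398). In both genes HCC replicate 1 was the highest HCC array and replicate 3 the lowest.

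The HCC arrays did not carry equal amounts. The mean of log2(intensity + 16) over the 47 genes was 9.00, 8.41 and 8.70 on HCC replicates 1, 2 and 3, and 8.08 to 8.23 on the other 9 arrays. Replicate 1 was the highest HCC array for 35 genes and replicate 2 the lowest for 36. For the SF3B subunits HCC replicate 2, at 8.68, did not exceed the other groups, at 8.62 to 8.77. Without HCC replicate 2 the count of called members was 32 higher and 1 lower, against 44.5% of all genes called. Without HCC replicate 1 it was 26 higher and 5 lower, against 38.2% of all genes, and without HCC replicate 3 it was 26 higher and 1 lower, against 34.1%.

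Proliferation genes moved with the members. Of 23 measured proliferation markers 21 were called higher in HCC, beside 20% of all genes, with a median difference of 1.21. Mki67, present in cycling cells, went from a mean of 66.3 to 433, and Top2a, the topoisomerase of dividing cells, from 50.6 to 230. Summed intensity of the 23 genes was 1560 to 2300.0 in controls, 1683 to 2956 in hepatitis, 1476 to 1640 in cirrhosis and 3125 to 7968 in HCC. The mean log2 of this list was 8.09, 6.85 and 7.82 on HCC replicates 1, 2 and 3, so replicate 1 was the highest and replicate 2 the lowest, as for the members. That order was not particular to proliferation. Cholangiocyte markers had it, at 8.606, 6.553 and 6.977, as did T and NK cell, B and plasma cell and macrophage markers. Hepatocyte markers, at 11.03, 11.916 and 10.87, and endothelial markers, at 6.518, 7.385 and 6.815, had replicate 2 highest. The part of proliferation or of other cell types in the result was not tested.

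Other cell type markers also differed between HCC and control, beside 20% of all genes called higher and 18.7% lower. The lists are short, and whether their counts exceed these shares was not tested. Of 8 cholangiocyte markers 3 were called higher, with a sum of 578 to 632 in controls, 739 to 1865 in hepatitis, 1198 to 1356 in cirrhosis and 1717 to 7183 in HCC. Of 8 endothelial markers 5 were called lower, at 2621 to 2960 in controls, 1851 to 2879 in hepatitis, 2155 to 2433 in cirrhosis and 675 to 1487 in HCC. Macrophage markers had 1 of 10 higher and 5 lower, T and NK cell markers 6 of 12 higher, stellate cell markers 4 of 12 higher and 1 lower, B and plasma cell markers 1 of 5 higher, and all 4 erythroid markers lower.

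**Figure D3:**
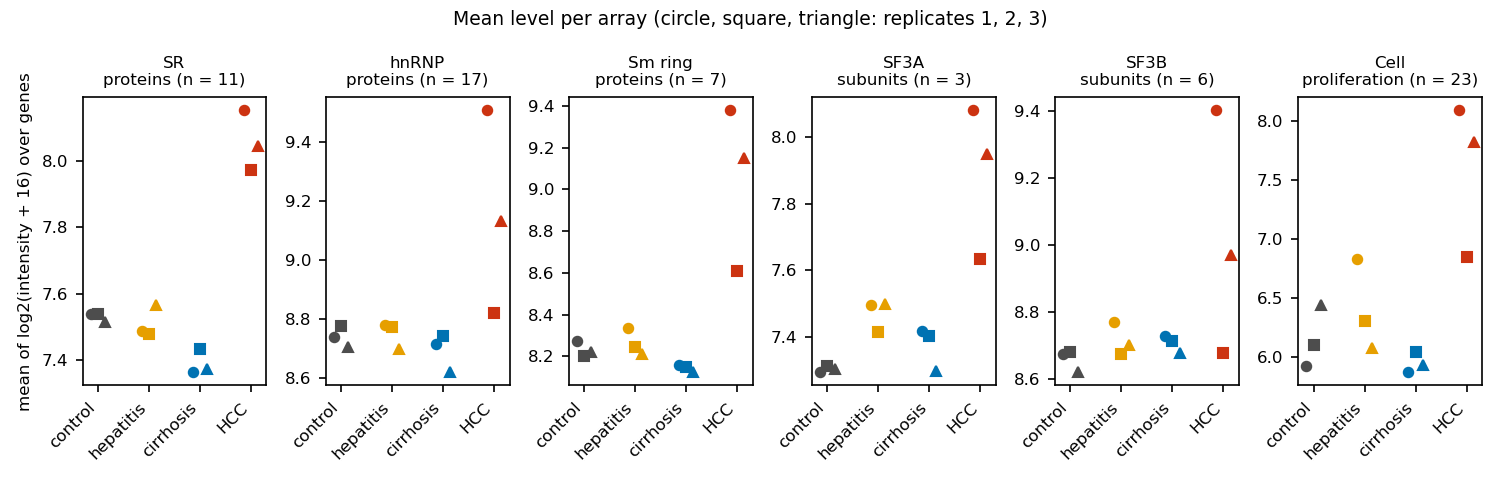
Mean of log2(intensity + 16) over the genes of a family (y axis, not from 0) on each array, by group (x axis), for the 5 families with at least 3 members and, at the right, for 23 proliferation markers; the marker shape gives the replicate number. The HCC arrays are highest in 4 families, with replicate 1 at the top, while in SF3B replicate 2 sits at 8.68 among the other groups.

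Against cirrhosis, the stage before, HCC showed 29 of 47 members higher and 3 lower by limma, 61.7% and 6.4%. Of all genes 37% were called, 19.4% higher and 17.6% lower, or 25.2% and 23.5% without the dimmest 30% of genes. The comparison shares its HCC arrays with the one against control, so the values are given side by side and are not independent. The largest differences were 2.17 ± 0.25 for Snrpd1, 2.06 ± 0.13 for Hnrnpa1 and 1.92 ± 0.27 for Snrpf, against 1.63, 1.39 and 1.99 from control. Srsf6 gave 1.56, Srsf11 1.44, Snrpa 1.32, Hnrnpdl 1.23, Snrpa1 1.15, Sf3b2 1.09, Hnrnph1 1.09, Snrpe 1.08, Srsf2 1.03 and Srsf1 1.01. Hnrnpa2b1, Sf3b1, Hnrnpc, Snrpd2 and Sf3b4 followed at 0.99, 0.93, 0.90, 0.74 and 0.74. Sf3b5 was lower by a difference of -1.19 ± 0.17 and Hnrnpr by -1.09 ± 0.28, here with groups that did not overlap.

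Hnrnpu, Sf3a1, Sf3a2, Sf3b3, Srsf5, Srsf9 and Srsf10 were called higher by smaller differences, as they were against control. Called against cirrhosis alone were Hnrnpl at 0.56, Srsf4 at 0.52, Hnrnpul1 at 0.44, Srsf7-ps4 at 0.20 and Srsf7 at -0.18, the last of them lower. The same genes had given 0.33, -0.25, 0.08, 0.14 and 0.07 against control, and none of these passed. Srsf4 and Srsf7 were near the threshold: 11 of the other settings ended each call, with adjusted p up to 0.157 and 0.159. Hnrnpl and Hnrnpul1 did not pass without cirrhosis replicate 3, with adjusted p of 0.0634 and 0.0509. Srsf7-ps4, under 16 on 10 of 12 arrays with means of 12.5 in cirrhosis and 16.8 in HCC, did not pass with median centring, array weights or these groups alone (adjusted p = 0.0572, 0.0636 and 0.0747). A fit of HCC and cirrhosis alone called 23 members and 24.6% of all genes, and ended the calls of Hnrnpl, Hnrnpr, Hnrnpu, Sf3a1, Sf3b1, Sf3b4, Srsf10, Srsf7 and Srsf7-ps4 at adjusted p between 0.052 and 0.127. Whether a gene differed more from cirrhosis than from control is the cirrhosis against control comparison itself.

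Before HCC few genes of any kind were called in the fit of all 12 arrays. In hepatitis against control limma called none of 47, against 4% of all genes, 1.87% higher and 2.12% lower. An unadjusted p under 0.05 was found for 8 members. How many of all genes lay under that unadjusted threshold was not counted, here or in the comparisons below. The median difference over the members was 0.04. The smallest adjusted p was 0.053, for Hnrnph3, another binder of guanine runs. It read 148, 164 and 127 in controls and 90.7, 117 and 93.2 in hepatitis, without overlap, a difference of -0.48 ± 0.12. Srsf11 gave 0.42 ± 0.13 (adjusted p = 0.106) and Srsf4 -0.47 ± 0.18 (adjusted p = 0.208). In cirrhosis against hepatitis none of 47 was called, against 0.957% of all genes, 0.394% higher and 0.563% lower, and 2 had an unadjusted p under 0.05. The smallest adjusted p there was 0.124, for Srsf11, at -0.49 ± 0.13.

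In cirrhosis against control 1 member was called, lower, against 3.34% of all genes called and 1.8% called lower and 1.54% higher. Hnrnpa1 fell by 0.67 on the log2 scale (SE 0.13, limma adjusted p = 0.0299), from a mean of 481 ± 42 to 295 ± 11.5 (SD, n = 3). The 3 cirrhosis arrays lay below all controls and all hepatitis arrays. The call was lost without any 1 of the 3 control or 3 cirrhosis arrays, with differences of -0.61 to -0.72 and adjusted p between 0.0576 and 0.125. It was also lost with the mean of its probe sets, at -0.37 (adjusted p = 0.521). Srsf4, at 464, 430.1 and 483 in cirrhosis against 749 to 856 in controls, gave a larger difference of -0.77 ± 0.18 and just missed (adjusted p = 0.0547). Counting members at an unadjusted p under 0.05 gave 8, and the share of all genes at that threshold was not counted.

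The spread of the HCC arrays entered that test, because all 12 arrays share 1 estimate per gene. In a fit of the control and cirrhosis arrays alone 14 members were called, 10 lower and 4 higher, while 19.0% of all genes were called, 9.99% lower and 8.97% higher. Srsf4 gave -0.77 (adjusted p = 0.00154), Hnrnpa1 -0.67 (0.00244), Snrpd1 -0.54 (0.0134) and Hnrnph1 -0.40 (0.0047). Hnrnpdl, Snrpa, Snrpa1, Srsf6, Sf3b3 and Hnrnpl gave smaller falls, of -0.23 to -0.38. The 4 higher were Hnrnpf at 0.36, Hnrnpa3 at 0.28, Srsf7 at 0.24 and Hnrnpu at 0.17. With hepatitis and control alone 1 member was called, Sf3b3 at -0.34 (adjusted p = 0.0319), against 6.32% of all genes.

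Of the members 15 had several probe sets, 28 beside those used. In a fit of all probe sets 15 of the 28 were called higher in HCC against control and none lower, while 15.7% of all probe sets were called higher and 14.1% lower. All probe sets of 6 genes were called, and of 9 genes only some. Srsf11 had a second probe set at 1.90 and Snrpd1 a second at 1.65. Hnrnpa3, not called on its brightest probe set, had all 4 others called higher, with 1370871_at going from a mean of 873 to 2312, a difference of 1.31 ± 0.24. Hnrnph3 had its other probe set called at 0.43 ± 0.11. By contrast the other probe sets 1371999_at of Srsf6, 1388614_at of Sf3b2 and 1371333_at of Hnrnpdl gave -0.06, -0.09 and 0.09 and did not pass, beside called differences of 1.22, 1.27 and 0.85. Against cirrhosis 16 of the 28 were called higher and 1 lower, while 17.5% and 14.8% of all probe sets were.

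In cirrhosis against control probe sets of several genes disagreed. There 2 of the 28 were called higher and 3 lower, against 1.59% and 2.04% of all probe sets. In Hnrnpa2b1 they opposed each other: 1373540_at went from 242 in controls to 140 in cirrhosis (-0.73 ± 0.11, adjusted p = 0.0125), and 1395561_at from 145 to 289 (0.94 ± 0.18, adjusted p = 0.0287). The second of these was already at 323 in hepatitis (1.08, adjusted p = 0.0171) and was back at 151 in HCC, when the other was at 337. In Hnrnpu 1372823_at fell from 167 to 56.3 (-1.34 ± 0.24, adjusted p = 0.0201) and was 381 in HCC, whereas the used probe set gave 0.17 in cirrhosis. In hepatitis 1 of the 28 was called higher and 1 lower, against 1.42% and 1.53% of all probe sets. The lower was in Srsf6, where 1371999_at fell from 169 to 111 in hepatitis and 94.6 in cirrhosis (-0.73 ± 0.10, adjusted p = 0.00796) and was 161 in HCC. Which transcript or part of a transcript each probe set reads was not analysed here.

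**Figure D4:**
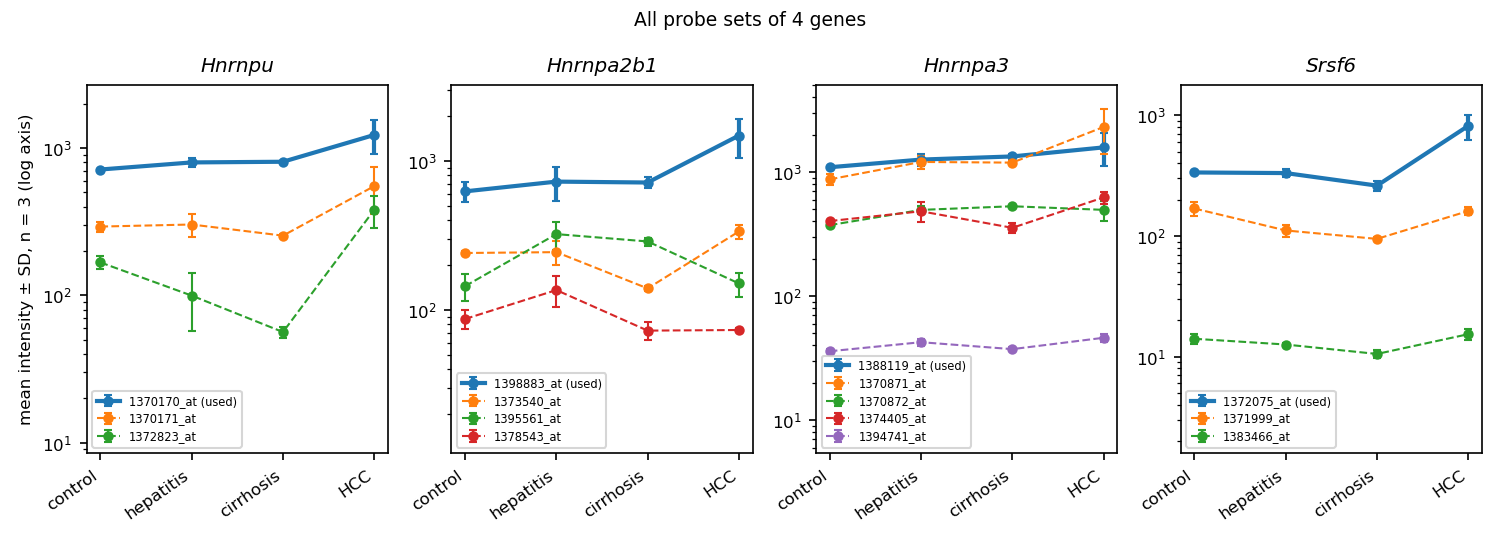
Mean intensity (y axis, log scale) of every probe set of Hnrnpu, Hnrnpa2b1, Hnrnpa3 and Srsf6 by group (x axis), with the standard deviation of 3 arrays as bars; the thick line is the probe set used for the gene. Hnrnpu 1372823_at dips to 56.3 in cirrhosis, and Hnrnpa2b1 1395561_at and 1373540_at cross between hepatitis and HCC.

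The other genes of the splicing pathway were described from 8 lists, with 164 of 176 genes measured. In HCC against control 83 were called higher and 6 lower, 50.6% higher, with a median difference of 0.39, beside 20% of all genes higher and 18.7% lower and a median of 0.01. Among factors of splice site recognition 13 of 19 were higher and 1 lower. U2af1, which reads the 3′ splice site, rose by 1.42 ± 0.19, Tia1, which recruits U1 to weak sites, by 1.30 ± 0.12 and Luc7l, a U1-associated protein, by 1.11 ± 0.21. Among further snRNP proteins 12 of 23 were higher and 1 lower, with Prpf38b at 1.54, Snrnp48 at 1.34 and Snrnp25, a protein of the minor spliceosome, lower at -1.46. LSm proteins, which form the ring of U6, had 4 of 9 higher and 1 lower, with Lsm3 at 0.97, Lsm4 at 0.88 and Lsm10, a U7 snRNP protein, at -0.93.

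Assembly and control factors are given beside the same 20% of all genes called higher in HCC against control and 18.7% lower. Without the dimmest 30% of genes these shares were 25.6% and 25.4%. Whether the counts of these short lists exceed the shares was not tested. The SMN complex and Sm methylation list, which loads the Sm ring, had 4 of 12 higher and 1 lower, with Smn1 at 1.21 ± 0.16, Prmt5 at 0.99 ± 0.19 and Ddx20 at 0.65 ± 0.19. SR kinases and SR-related regulators had 9 of 19 higher and none lower, with the kinase Prpf4b at 1.75, the nuclear pore protein Tpr at 1.34 and the splicing activator Tra2a at 1.14. Catalytic step proteins had 10 of 28 higher and 1 lower, with Isy1, the helicase Ddx39a and Ppil1 at 1.13, 1.12 and 1.06. Exon junction and export genes had 10 of 18 higher and none lower, with Srrm2 at 1.33, Srrm1 at 0.90 and Thoc2 at 0.79. Genes related to hnRNPs or acting as tissue splicing regulators had 21 of 36 higher and 1 lower, with Khsrp at 1.66, Syncrip at 1.40 and Ewsr1 at 1.18.

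Against cirrhosis 89 of the 164 were higher and 5 lower, beside 19.4% and 17.6% of all genes, with Prpf4b at 2.29, Rbm39 at 2.04, Snrnp48 at 1.84 and Khsrp at 1.83. In cirrhosis against control 1 of the 164 was higher and 3 lower, beside 1.54% and 1.8% of all genes. Rbm39, a U2AF-related coactivator, went from a mean of 1024 to 473 (-1.09 ± 0.18, limma adjusted p = 0.015) and stood at 2010 in HCC. Snrnp70, the U1 70K protein, gave -0.73 ± 0.14 (adjusted p = 0.0261) and Clk4, a kinase of SR proteins, -0.80 ± 0.17 (adjusted p = 0.0365), with a mean of 335 in controls, 186 in cirrhosis and 338 in HCC. Celf2 was the gene called higher, at 0.89 ± 0.13 (adjusted p = 0.00981). In hepatitis against control and in cirrhosis against hepatitis limma called none of the 164.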

How the data were processed

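Per the labels, total RNA was isolated with TRIzol, labelled with biotin and hybridised to Affymetrix arrays. The values deposited by the authors are linear intensities, 1 per probe set and array. MAS5 and RMA are named in the submitters' processing notes. Which of them made the values, with what version and scaling, was not given in the sources used here. All 12 columns were used and 0 left out.

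The table held 31099 probe sets. Names came from the platform annotation: 20826 probe sets had 1 symbol, 436 several, 9780 none and 57 were array controls. A symbol update through RefSeq GRCr8 changed 0 and did not find 50. Each of 14217 genes was represented by its probe set with the highest mean. Values were analysed as log2(intensity + 16) with limma 3.58.1 (lmFit, eBayes) in R 4.3.3 over all 12 arrays and 4 groups, 5 contrasts and an F test, with 2-sided moderated tests and Benjamini-Hochberg adjustment over all genes. A gene was called at an adjusted p under 0.05. Prior degrees of freedom were 1.8. ± after a log2 difference is its standard error. The fit was also run on simulated arrays in which a gene had the same spread in every group. That run could not test the effect of the wider spread of the HCC arrays. Tables were made in Python 3.11.15 with pandas 2.3.3 and numpy 2.4.6, figures with matplotlib 3.10.9. Motifs were searched as exact letters in the RefSeq promoter table.

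The genes and lists were chosen with earlier results of these data known. Named genes are the called members of a comparison up to 30, beyond that the 20 largest differences, the largest difference and highest mean of each family, up to 3 called genes per pathway list, and members whose probe sets disagree. Of the 176 pathway genes 164 were measured. Arrays count no molecules, and precision is limited by having 3 of them in a group. Whether replicate numbers in the titles pair the samples is not known. Alternatives were 1 or 64 added before the log2, quantile normalization, median centring, the mean of all probe sets, no dim genes, 2 groups alone, a replicate block, array weights, and each array left out.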

Additional observations from a re-analysis of the deposited data

Results flagged for a closer look

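Probe set 1372167_at, which carries 3 symbols and so stands outside the set and all tests of genes, was measured at a mean of 718 ± 30.4 in controls and 2074 ± 546 in HCC (SD, n = 3). Its difference between HCC and control was 1.47 on the log2(intensity + 16) scale (limma adjusted p = 0.000292 in the fit of all probe sets), with cirrhosis at 754. Of the 8 matching probe sets with several symbols no other is described here. This probe set was singled out for a signal above the controls, so its adjusted p, from the same arrays, is no separate support. Of the comparisons reported it entered only the fit of all probe sets. Which of its genes it reads was not analysed here.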

How the results depend on the processing

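Over up to 21 other settings (20 for Srsf7 and Srsf7-ps4, which the filter on dim genes removed) 20 of the 27 calls in HCC against control and 21 of the 32 in HCC against cirrhosis were kept in every one, the 1 call in cirrhosis against control was not, and no call changed direction. Counts of called members were 21 to 31 and 23 to 35 under the other processing choices, with quantile normalization giving 31 and 35 (39.1% and 37.5% of all genes) and 2 groups alone 21 and 23 (22.5% and 24.6%). Without the dimmest genes, which leaves 43 members, they were 28 and 30 (51.0% and 48.6%). With array weights 7 members were called in hepatitis against control, 15 in cirrhosis against control and 2 in cirrhosis against hepatitis, in place of 0, 1 and 0; all genes went to 15.2%, 21.7% and 6.77%. The HCC arrays had weights of 0.227 to 0.364 there and the others 0.878 to 3.3. With 2 groups alone hepatitis against control gave 1 and cirrhosis against control 14. Cirrhosis against control gave 3 with the mean of all probe sets and 2 without the dimmest 30% of genes, for which fewer genes were tested. The cause of the other shifts was not tested.

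Leaving out 1 array at a time gave 26 to 33 called members in HCC against control (29.4% to 44.5% of all genes). In HCC against cirrhosis it gave 28 to 37 (29.0% to 43.5%). For any difference among groups it gave 28 to 40 (33.3% to 46.5%), where all arrays gave 32. Hepatitis against control gave 0 to 3 (1.27% to 7.58%) and cirrhosis against control 0 to 4 (0.682% to 6.23%). Cirrhosis against hepatitis gave 0 throughout (0.274% to 2.34%). The cirrhosis against control count was 4, 3 and 4 without HCC replicates 1, 2 and 3, where all genes stood at 6.23%, 5.56% and 5.16% in place of 3.34%, and 2 without hepatitis replicate 3 (3.52%). The hepatitis against control count was 3 without HCC replicate 1 or 2, where all genes stood at 7.58% and 7.04%.

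Of 18 pairs of arrays with the same replicate number 3 had correlated deviations over 0.1, with a range of -0.26 to 0.37. Of 36 other pairs 5 did, with a range of -0.32 to 0.2. Samples that belong together need not have correlated deviations, so these values cannot show whether the numbers pair the samples. With the replicate block 27 members were called in HCC against control, 31 in HCC against cirrhosis and 2 in cirrhosis against control. All genes stood at 37.6%, 36.0% and 2.17% there.

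The small number of arrays, 3 per group, and the spread of the HCC arrays limit all counts, dim probe sets such as those of Srsf3 and Snrpn have little room for a difference on this scale, and RNA quality and tissue makeup differed with HCC.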
